A study of Rattus norvegicus with 18 samples.

Results

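The 10 genes described here belong to the unfolded protein response of the endoplasmic reticulum (ER): Hspa5, Hsp90b1, Calr, Pdia4, Dnajb9, Sdf2l1, Creld2, Xbp1, Herpud1 and Edem1. They were taken as the probe sets to which the platform annotation gives a single symbol from that list, which found all 10 genes on 12 probe sets, out of 14217 genes on 31099 probe sets. Edem1 had 3 probe sets and every other gene had 1; a gene is represented by the probe set with the highest mean over 18 arrays. All 12 probe sets passed the filter on low values, a log2 level of 4 or more on at least 3 arrays, as did 9015 genes in all. Expression had been measured on Affymetrix rat arrays in NRK-52E cells, an established rat kidney line described in the labels as proximal tubular and of Osborne-Mendel strain. Confluent cells were exposed for 6, 24 or 72 h to aristolochic acid (AA), a nitrophenanthrene carcinogen of Aristolochia plants that injures the proximal tubule, at 1.65 µM in 0.1% DMSO, or to 0.1% DMSO alone. The dose was the one that inhibits these cells by 10% at 72 h, per the labels. There were 6 groups of 3 arrays, AA and DMSO at 6 h, at 24 h and at 72 h, and all 6 carried the solvent.

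When unfolded proteins gather in the ER lumen, the membrane sensors IRE1, PERK and ATF6 are released from the chaperone BiP and signal to the nucleus. IRE1 removes a short intron from the Xbp1 mRNA so that it encodes an active transcription factor, ATF6 is cleaved in the Golgi to free another, and PERK slows translation and leads to ATF4. XBP1 and ATF6 raise ER chaperones, folding enzymes and the machinery of ER-associated degradation (ERAD), which returns misfolded proteins to the cytosol. ER stress has been described in kidney tubule cells injured by toxins and ischaemia. The array probe sets read the total mRNA of a gene, so spliced and unspliced Xbp1 were not told apart here.

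The ER stress response element (ERSE), CCAAT and CCACG with any 9 bases between them, is the promoter motif through which ATF6 and XBP1 act together with NF-Y, and its compact form ERSE-II is ATTGG and CCACG with any 1 base between them. A CCAAT box lies within each ERSE. Both were searched on both strands in the 250 bases before the start site of each gene in RefSeq's GRCr8 promoters, and all 10 genes were found there. Exact ERSE letters were present in 5 of the 10 genes and in 22 of 33469 promoters, 0.0657% of them. ERSE-II was present in 1 of the 10 genes, Herpud1, and in 14 promoters, 0.0418% of them. The elements are shown because they are a sequence feature that most of these genes share. The genes were chosen as members of the response that acts through these motifs, so the shares are not independent of that choice. Each is printed in the direction that starts with CCAAT or ATTGG, with the fixed letters in capitals.
Hspa5 (+ strand of chr3:38452973-38452991): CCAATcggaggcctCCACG
Hsp90b1, distal (- strand of chr7:23012451-23012469): CCAATcgaaaggagCCACG
Hsp90b1, proximal (+ strand of chr7:23012347-23012365): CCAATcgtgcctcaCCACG
Calr (- strand of chr19:40213135-40213153): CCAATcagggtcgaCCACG
Creld2 (- strand of chr7:121789239-121789257): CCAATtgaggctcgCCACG
Xbp1 (+ strand of chr14:84604558-84604576): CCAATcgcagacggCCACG
Herpud1, ERSE-II (- strand of chr19:10614821-10614831): ATTGGgCCACG

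With 1 fixed letter allowed to differ, Pdia4 and Herpud1 also matched ERSE, 7 of 10 genes in all, against 1.27% of all promoters. With 2 letters allowed to differ Dnajb9 and Sdf2l1 matched too and Edem1 did not, against 15.5% of promoters, so the looser match is common. TGACGTGG, the form searched here for the core of the XBP1 element UPRE, was in 0 of the 10 windows and in 0.52% of all promoters. The Hspa5 window printed below holds TGACGTGA, which differs from it in the last letter, and that form was not searched. The windows of Dnajb9, Creld2, Herpud1 and Edem1 lay inside the span annotated for the gene, so the start site used lies within that span. The 250-base windows of the gene with the largest rise at 72 h, Sdf2l1, of the gene that fell at 72 h, Xbp1, and of Hspa5, the best-known target, are printed for comparison, 5′ to 3′ in the direction of the gene, with the fixed letters of exact elements in capitals.
Sdf2l1 (chr11:97376628-97376877, + strand): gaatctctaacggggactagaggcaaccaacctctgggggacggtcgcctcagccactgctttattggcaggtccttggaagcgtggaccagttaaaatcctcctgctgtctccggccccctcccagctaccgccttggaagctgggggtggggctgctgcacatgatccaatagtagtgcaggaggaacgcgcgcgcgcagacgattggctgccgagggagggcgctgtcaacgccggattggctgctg
Xbp1 (chr14:84604373-84604622, + strand): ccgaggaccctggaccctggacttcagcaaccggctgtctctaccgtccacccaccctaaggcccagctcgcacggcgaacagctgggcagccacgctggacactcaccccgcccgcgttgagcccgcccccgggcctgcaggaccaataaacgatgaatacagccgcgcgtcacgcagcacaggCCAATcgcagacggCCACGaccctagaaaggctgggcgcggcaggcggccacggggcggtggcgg
Hspa5 (chr3:38452766-38453015, + strand): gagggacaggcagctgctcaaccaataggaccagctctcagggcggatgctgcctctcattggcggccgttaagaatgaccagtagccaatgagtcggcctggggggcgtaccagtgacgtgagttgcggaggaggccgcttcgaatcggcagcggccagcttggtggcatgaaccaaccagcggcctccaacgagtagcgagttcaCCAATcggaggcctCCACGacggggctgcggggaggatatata
The Xbp1 window ends its element 47 bases before the start site and the Hspa5 window 25 bases before it, while the Sdf2l1 window holds no exact element. A match is a description of the letters only.

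Values below are the deposited log2 expression values. A level is given per array or as the mean ± SD of 3 arrays, and a log2 fold change is AA minus DMSO with its standard error (n = 3 arrays a group). All p-values are limma's, from 1 fit of all 18 arrays and adjusted by Benjamini-Hochberg over the 9015 genes, and a gene passed when the adjusted p was under 0.05. The labels call the arrays of a group biological replicates and speak of 3 studies at each time, without saying whether a replicate number marks a study; the p-values rest on how these samples vary.

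Treatment with AA moved few of the 10 genes at 6 h and none past the test at 24 h. At 72 h, 5 rose (Sdf2l1, Calr, Edem1, Creld2 and Hspa5), 1 fell (Xbp1) and 4 did not pass. Edem1 is counted there by its brightest probe set, while another of its probe sets fell, and the Hspa5 call was lost in 8 of 15 other settings. Calls were common in that comparison: 47.2% of all genes tested passed at 72 h, 27.4% higher and 19.8% lower, so 5 of 10 higher and 1 of 10 lower is to be read against those shares. The median log2 fold change of the 10 genes at 72 h was 0.20, beside 0.05 over all genes tested. At 6 h 1 gene rose (Xbp1) and 1 fell (Dnajb9), where 24.5% of all genes passed, 12.1% higher and 12.4% lower; the median of the 10 was -0.03 and that of all genes 0.01. At 24 h 0 of 10 passed limma's test, where 2.09% of all genes passed, 1.81% higher and 0.277% lower. Of the 10, 2 genes (Sdf2l1 and Calr) had an unadjusted p under 0.05 at 24 h, as did 1006 of all genes. The fold changes of the 10 at 24 h ran between -0.02 and 0.36, with 95% intervals reaching from -0.36 to 0.63. The median of the 10 was 0.11 and that of all genes -0.01. All AA arrays at 24 h lay above all DMSO arrays for 3 of the 10 (Sdf2l1, Herpud1 and Edem1), as for 9.04% of all genes, and the other members overlapped.

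Features of the arrays and cells moved with the 72 h comparison as well. A measure of RNA integrity, the log2 signal of 3′ control probe sets minus that of 5′ ones averaged over 3 control genes, was 0.96 to 1.26 on the AA arrays at 72 h and 0.67 to 0.81 on the DMSO arrays at 72 h (two-sided exact permutation p = 0.1, the smallest that 3 against 3 arrays allow); the 15 arrays outside AA at 72 h lay between 0.49 and 0.81. BioB, a transcript added to each sample as a hybridisation control, had log2 signals of 8.67 to 9.39 on the AA arrays and 8.35 to 8.64 on the DMSO arrays at 72 h (two-sided exact permutation p = 0.1). At 6 h the median log2 value of all probe sets was 4.03 to 4.08 on the AA arrays and 4.11 to 4.16 on the DMSO arrays (two-sided exact permutation p = 0.1). Of 11 proximal tubule markers on the array only Aqp1 and Ggt1 passed the filter, and the defining markers Lrp2, Cubn and Slc34a1 were at the low end of the scale on average, at 2.31, 1.95 and 2.27. The summed linear signal of all 11 markers was 119 to 126 on the AA arrays and 391 to 413 on the DMSO arrays at 72 h. At 6 h it was 150 to 267 on the AA arrays and 98.8 to 114 on the DMSO arrays. A different gene carried most of the gap at each time. At 72 h the mean log2 level of Aqp1 was 6.11 in AA and 8.43 in DMSO, and that of Ggt1 3.45 in AA and 3.50 in DMSO. At 6 h Ggt1 was at 7.13 in AA and 5.86 in DMSO, and Aqp1 at 2.07 in AA and 2.08 in DMSO. Of 8 general epithelial markers 3 passed (Krt8, Ocln and Tjp1), with sums of 22691 to 24300 in AA and 20522 to 21967 in DMSO at 72 h. The mean log2 levels of Krt8 (13.25 in AA and 12.71 in DMSO) and Ocln (6.35 in AA and 5.82 in DMSO) were then higher in AA. That of Tjp1 was lower (13.74 in AA and 13.84 in DMSO). Of 10 mesenchymal markers 6 passed, with overlapping sums of 55091 to 58460 in AA and 50799 to 59327 in DMSO at 72 h, sums carried mostly by the brightest genes. Their mean log2 levels at 72 h lay on both sides: those of Tagln (13.47 in AA and 12.11 in DMSO), Acta2 (10.58 in AA and 9.84 in DMSO) and Col1a1 (7.95 in AA and 7.48 in DMSO) were higher in AA, and those of Vim (14.46 in AA and 14.55 in DMSO), Col3a1 (14.32 in AA and 14.64 in DMSO) and Col1a2 (9.77 in AA and 10.05 in DMSO) lower. None of 6 distal tubule markers passed. Of 3 endothelial markers only Tek passed, with sums of 23.6 to 30.0 in AA and 77.4 to 91.6 in DMSO at 72 h, and of 4 leukocyte markers only Cd68, with sums of 52.1 to 63.0 in AA and 28.8 to 33.5 in DMSO; Pecam1 and Ptprc, which define these cells, were at 2.14 and 2.73. The part of RNA integrity, of these array signals and of these cell markers in the results was not tested. In bulk RNA, fewer cells of a type and less RNA per cell cannot be told apart.

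**Figure D1:**
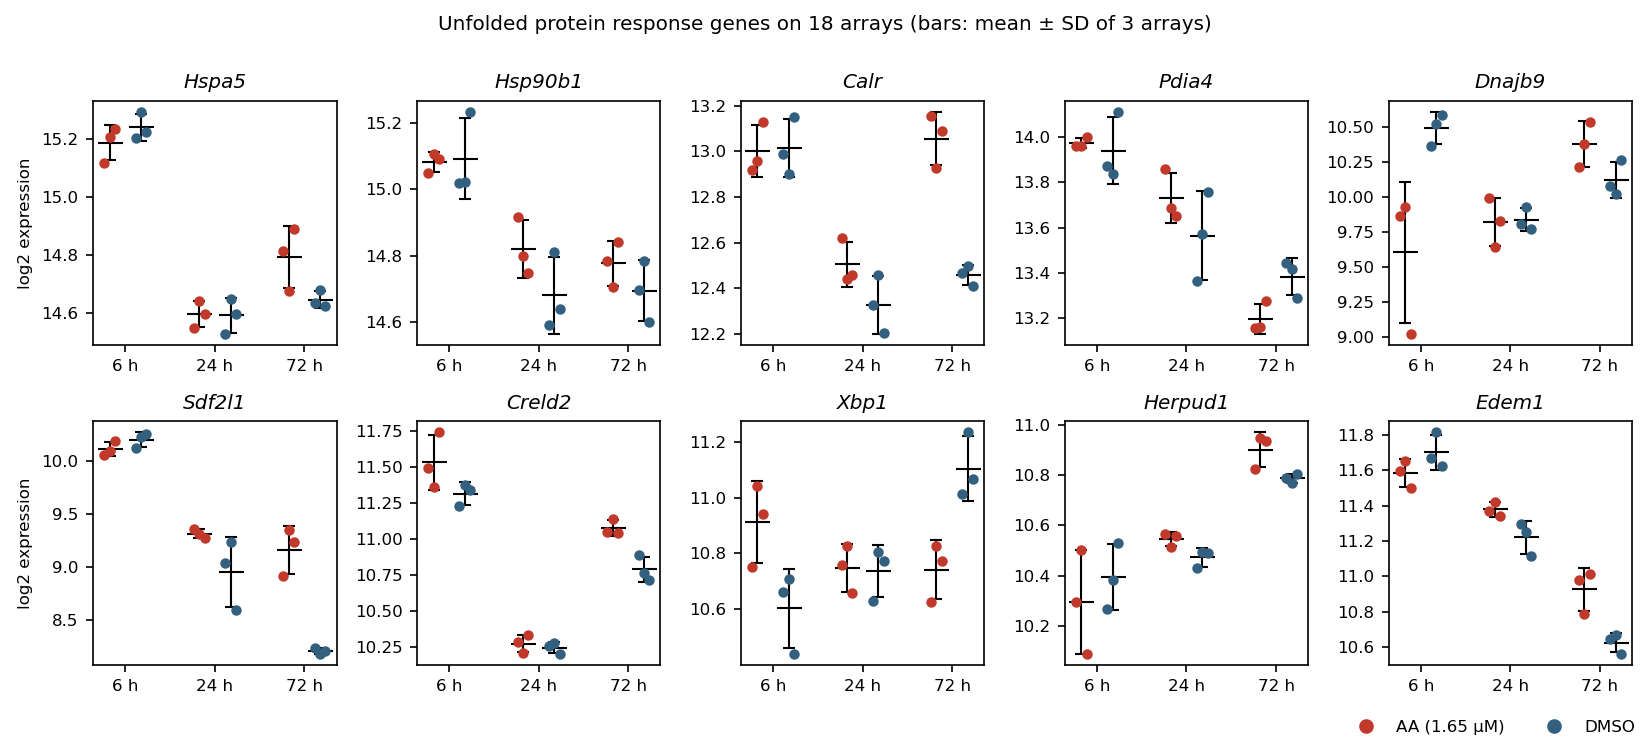
Log2 expression of the 10 genes on each array, AA left of DMSO at 6, 24 and 72 h; points are arrays and bars the mean ± SD of 3 arrays. At 72 h all AA arrays lie above all DMSO arrays for Sdf2l1, Calr, Creld2, Edem1 and Herpud1, as for 34.4% of all genes tested. They all lie below for Xbp1 and Pdia4, as for 25.2% of all genes tested. In DMSO 8 of the 10 genes are lower at 24 h than at 6 h, where 30.5% of all genes passed lower.

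Hspa5 encodes BiP, the Hsp70 chaperone of the ER lumen that also holds the sensors inactive. At 72 h it stood at 14.81, 14.68 and 14.89 on the AA arrays and at 14.64, 14.68 and 14.62 on the DMSO arrays. The lowest AA array lay within the DMSO range and the other AA arrays lay above it. The log2 fold change was 0.15 ± 0.05, or 1.11-fold (adjusted p = 0.0311), and this call was lost in 8 of 15 other settings, among them leaving out AA replicate 1 or 3 or DMSO replicate 1 or 3, with values from 0.10 to 0.21. At 6 h the level was 15.19 ± 0.06 in AA and 15.24 ± 0.05 in DMSO, and at 24 h 14.60 ± 0.05 in AA and 14.59 ± 0.06 in DMSO. Neither difference passed (-0.05 and 0.00 in log2, with 95% intervals of -0.17 to 0.06 and -0.11 to 0.12).

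Hsp90b1 encodes GRP94, the Hsp90 chaperone of the ER, and did not pass at any time. Its AA arrays at 72 h read 14.78, 14.70 and 14.84 and its DMSO arrays 14.70, 14.79 and 14.60, with overlapping ranges and a log2 fold change of 0.08 ± 0.07 (95% interval -0.06 to 0.23). Its mean was 15.08 in AA and 15.09 in DMSO at 6 h, and 14.82 in AA and 14.68 in DMSO at 24 h.

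Calr encodes calreticulin, the calcium-binding lectin chaperone of newly made glycoproteins. At 72 h its AA arrays stood at 13.15, 12.93 and 13.09 and its DMSO arrays at 12.46, 12.50 and 12.41. All 3 AA arrays were above all 3 DMSO arrays, a separation in that direction that 34.4% of all genes showed. Calr rose by a log2 fold change of 0.60 ± 0.08, or 1.51-fold (adjusted p = 7.33e-06), and passed in all 15 other settings. At 24 h the means were 12.51 ± 0.10 in AA and 12.33 ± 0.13 in DMSO, which did not pass (0.18 ± 0.08, adjusted p = 0.421). At 6 h they were 13.00 ± 0.11 in AA and 13.01 ± 0.13 in DMSO, within the spread of the arrays.

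Pdia4 encodes ERp72, a protein disulphide isomerase with several thioredoxin-like domains. It was the only chaperone or folding enzyme of the 10 with a log2 fold change below 0 at 72 h. Its AA arrays then read 13.16, 13.16 and 13.27 and its DMSO arrays 13.44, 13.42 and 13.29, with every AA array below every DMSO array, but the difference of -0.19 ± 0.09 did not pass (adjusted p = 0.084), though it did after another quantile normalization and when only the 72 h arrays were fitted. Separation in that direction was seen for 25.2% of all genes. The means were 13.73 ± 0.11 in AA and 13.56 ± 0.20 in DMSO at 24 h, and 13.97 ± 0.02 in AA and 13.94 ± 0.15 in DMSO at 6 h.

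Dnajb9 encodes ERdj4, a J-domain co-chaperone of BiP that favours degradation of misfolded clients and restrains IRE1. It showed the largest change of the 10 genes at 6 h. Its AA arrays stood at 9.86, 9.93 and 9.02 and its DMSO arrays at 10.37, 10.53 and 10.59. Every AA array was below every DMSO array, as for 17.6% of all genes, with AA replicate 3 the lowest by far. Dnajb9 fell, with a log2 fold change of -0.89 ± 0.17, a level 0.54 times that of DMSO (adjusted p = 0.00151). Without AA replicate 3 the change was -0.60 ± 0.11 and still passed (adjusted p = 0.00416). That array also stood apart from its group on the fourth principal component of the tested genes (-26.5, with -6.63 and -8.92 for AA replicates 1 and 2). The fourth component held 4.89% of the variance. On the first, with 53.8%, the array was at -43.4 beside -39.6 and -39.4, and on the second, with 22.3%, at 10.0 beside 5.83 and 8.34. At 24 h the groups met, at 9.82 ± 0.17 in AA and 9.84 ± 0.08 in DMSO. At 72 h the AA arrays read 10.22, 10.38 and 10.54 and the DMSO arrays 10.08, 10.03 and 10.27, overlapping and not past the test (0.26 ± 0.17, adjusted p = 0.216).

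Sdf2l1 encodes a small ER protein that works with the J-domain protein ERdj3 and BiP in keeping misfolded proteins soluble. It had the largest rise of the 10 genes at 72 h. Its AA arrays stood at 8.91, 9.35 and 9.23 and its DMSO arrays at 8.24, 8.18 and 8.21. The groups did not overlap, and the DMSO arrays at 72 h were the lowest of all 18. The log2 fold change was 0.96 ± 0.13, or 1.94-fold (adjusted p = 5.41e-06), past the test in all 15 other settings. At 24 h the AA arrays, at 9.36, 9.31 and 9.28, also lay above the DMSO arrays, at 9.04, 9.23 and 8.59, but DMSO spread widely. That difference of 0.36 ± 0.13 did not pass (adjusted p = 0.225); it was 0.18 without DMSO replicate 3, and without DMSO replicate 2 it was 0.50 and passed. At 6 h the means were 10.11 ± 0.07 in AA and 10.20 ± 0.07 in DMSO.

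Creld2 encodes an ER protein with EGF-like domains that is induced by ER stress. At 72 h its AA arrays stood at 11.05, 11.14 and 11.05 and its DMSO arrays at 10.89, 10.77 and 10.72, with no overlap. Creld2 rose by a log2 fold change of 0.29 ± 0.08, or 1.22-fold (adjusted p = 0.00845), and kept the call in all 15 other settings. At 6 h it was at 11.50, 11.36 and 11.74 in AA and at 11.23, 11.38 and 11.34 in DMSO, which overlapped and did not pass (0.22 ± 0.08, adjusted p = 0.0673); without AA replicate 2 it passed at 0.30. At 24 h the means were 10.28 ± 0.06 in AA and 10.25 ± 0.04 in DMSO, which overlapped.

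Xbp1, the transcription factor gene whose mRNA IRE1 splices, was the only one of the 10 that passed at both 6 h and 72 h, and it did so in opposite directions. At 6 h its AA arrays stood at 10.75, 11.04 and 10.94 and its DMSO arrays at 10.66, 10.71 and 10.44. The AA arrays were all above the DMSO arrays, as for 18.9% of all genes, by a small margin at the nearest pair. Xbp1 rose by 0.31 ± 0.09 (adjusted p = 0.022), a call lost when only the 6 h arrays were fitted and without AA replicate 2 or 3 or DMSO replicate 3, with values from 0.23 to 0.39. At 24 h the groups overlapped, at 10.75 ± 0.08 in AA and 10.74 ± 0.09 in DMSO. At 72 h the AA arrays read 10.62, 10.83 and 10.77 and the DMSO arrays 11.01, 11.23 and 11.07, with every AA array below every DMSO array. Xbp1 then fell, with a log2 fold change of -0.36 ± 0.09, a level 0.78 times that of DMSO (adjusted p = 0.00358), in all 15 other settings too.

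Herpud1 encodes a membrane protein of the ERAD ubiquitin ligase complex. It did not pass at any time. At 72 h its AA arrays stood at 10.82, 10.95 and 10.94 and its DMSO arrays at 10.79, 10.77 and 10.81, all AA above all DMSO by a narrow margin, with a log2 fold change of 0.11 ± 0.09 (adjusted p = 0.301, 95% interval -0.07 to 0.30). Its means were 10.29 ± 0.21 in AA and 10.39 ± 0.13 in DMSO at 6 h, and 10.55 ± 0.03 in AA and 10.47 ± 0.04 in DMSO at 24 h. Every AA array at 24 h also lay above every DMSO array by a narrow margin, as for 9.04% of all genes. That difference of 0.07 ± 0.09 did not pass (adjusted p = 0.843).

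Edem1 encodes a lectin of the mannosidase family that directs misfolded glycoproteins to ERAD. On its brightest probe set, 1372533, the AA arrays at 72 h stood at 10.98, 10.79 and 11.02 and the DMSO arrays at 10.65, 10.67 and 10.56. The AA arrays were all above the DMSO arrays, and Edem1 rose by 0.30 ± 0.08, or 1.23-fold (adjusted p = 0.00301), in all 15 other settings too. At 24 h the AA arrays, at 11.37, 11.42 and 11.34, also lay above the DMSO arrays, at 11.30, 11.25 and 11.12, as for 9.04% of all genes, without passing (adjusted p = 0.457), and at 6 h the means were 11.58 ± 0.08 in AA and 11.70 ± 0.10 in DMSO.

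The Edem1 probe sets did not all point the same way at 72 h, so the direction of Edem1 depends on the probe set. Probe set 1384186 read 5.88, 5.34 and 5.50 on the AA arrays and 6.51, 6.30 and 6.93 on the DMSO arrays, all AA below all DMSO, with a log2 fold change of -1.003 ± 0.187 (limma adjusted p = 0.000263 over 12505 probe sets). Probe set 1395248 read 5.28, 5.33 and 5.71 on the AA arrays and 5.22, 5.31 and 3.96 on the DMSO arrays. DMSO replicate 3 was far below its group there, and the difference of 0.61 ± 0.27 did not pass (adjusted p = 0.0722); it was 0.17 without that array. At 6 h and at 24 h none of the 3 probe sets passed. The 3′ minus 5′ difference of the control probe sets given above also differed between these arrays, and its part in the result was not tested.

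**Figure D2:**
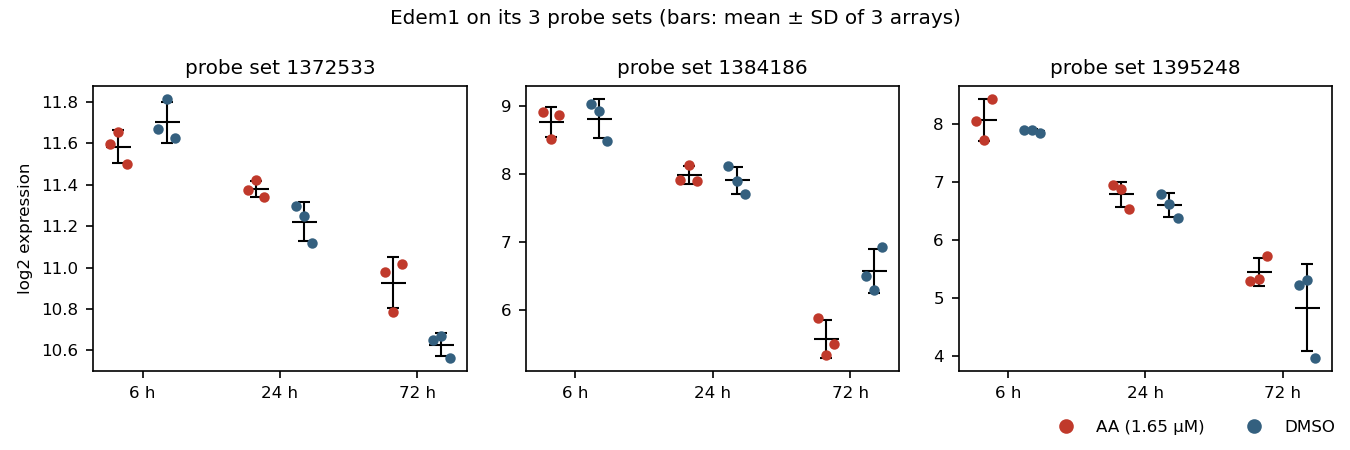
Log2 expression of Edem1 on its 3 probe sets, AA left of DMSO at 6, 24 and 72 h; points are arrays and bars the mean ± SD of 3 arrays. All 3 probe sets decline with time, while at 72 h AA is above DMSO on probe set 1372533 and below it on 1384186.

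**Figure D3:**
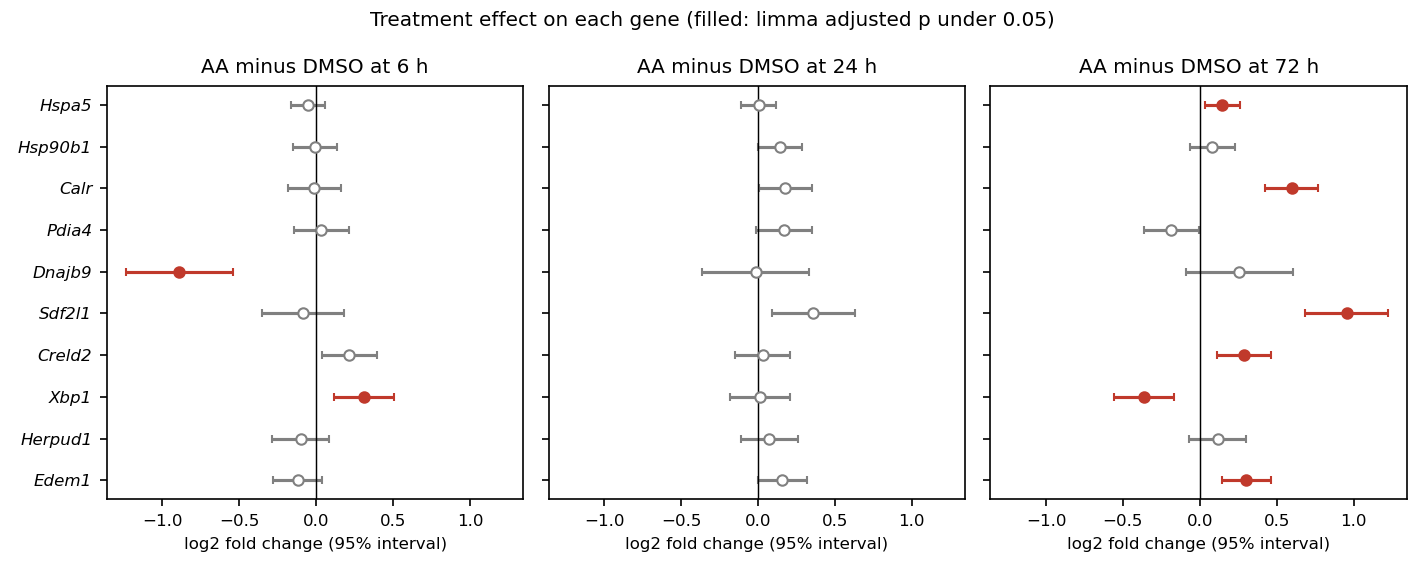
Log2 fold change of AA over DMSO for the 10 genes at 6, 24 and 72 h with 95% intervals from the limma fit; filled points passed the test. Dnajb9 at 6 h lies lowest at -0.89 and Sdf2l1 at 72 h highest at 0.96, and 0 points are filled at 24 h.

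The effect of AA was compared between times in the same fit. Between 24 h and 6 h the change of effect passed limma's test for 0 of the 10 genes, where 2.43% of all genes passed, 1.45% upward and 0.976% downward. Of the 10, 4 had an unadjusted p under 0.05, as did 1800 of all genes, and Dnajb9 was nearest to the threshold (0.87 ± 0.24, adjusted p = 0.0541), passing in 6 of 22 other settings, among them leaving out AA 6 h replicate 1 or 2 or DMSO 6 h replicate 1. Between 72 h and 24 h it passed for 4 genes, where 32.4% of all genes passed, 18.7% upward and 13.7% downward. The effect was higher at 72 h for Calr (0.42 ± 0.12, adjusted p = 0.0095) and for Sdf2l1 (0.59 ± 0.18, adjusted p = 0.017). It was lower at 72 h for Xbp1 (-0.37 ± 0.13, adjusted p = 0.0364) and for Pdia4 (-0.35 ± 0.12, adjusted p = 0.0316). The calls of Xbp1 and Pdia4 were each lost in 8 of 21 other settings, with no intensity trend, with no filter and on leaving out any of 6 arrays. For Xbp1 these were AA 24 h replicates 1 and 2, DMSO 24 h replicate 1, AA 72 h replicates 1 and 3 and DMSO 72 h replicate 2. For Pdia4 they were AA 24 h replicate 1, DMSO 24 h replicate 1, AA 72 h replicates 1 and 2 and DMSO 72 h replicates 1 and 2. That of Sdf2l1 was lost without DMSO 24 h replicate 2 or AA 72 h replicate 2.

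Between 72 h and 6 h, a comparison added after the values had been seen, the change of effect passed for 6 of the 10 genes, where 41.2% of all genes passed, 23.1% upward and 18% downward. Dnajb9 differed most (1.15 ± 0.24, adjusted p = 0.000806), its AA arrays being all below DMSO at 6 h and not at 72 h. Sdf2l1 (1.04 ± 0.18), Calr (0.61 ± 0.12), Edem1 (0.42 ± 0.11) and Hspa5 (0.20 ± 0.08) also differed upward, and Hspa5 lost its call in 13 of 21 other settings, 9 of which left out 1 array (AA 6 h replicate 1 or 2, DMSO 6 h replicate 2 or 3, AA 72 h replicate 1 or 3, or any DMSO 72 h array). Xbp1 differed downward (-0.67 ± 0.13, adjusted p = 0.000541), the AA arrays being all above DMSO at 6 h and all below it at 72 h.

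Differences between times were as large as those between treatments, and most of the 10 genes were lower at 24 h than at 6 h with AA and with solvent alone. In DMSO, 8 of the 10 genes were lower at 24 h than at 6 h and 0 were higher, where 30.5% of all genes passed lower and 28.3% higher; the median difference of the 10 was -0.56 and that of all genes -0.01. In those 8 genes all 3 DMSO arrays at 24 h lay below all 3 at 6 h, as they did for 32.9% of all genes. Sdf2l1 fell by 1.25 on the log2 scale (standard error 0.13, adjusted p = 1.16e-07), Creld2 by 1.07 on the log2 scale, and the other 6 (Calr, Dnajb9, Hspa5, Edem1, Hsp90b1 and Pdia4) showed log2 differences from -0.68 to -0.38. Xbp1 (0.13 ± 0.09) and Herpud1 (0.08 ± 0.09) did not pass.

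In AA, 7 of the 10 were lower at 24 h than at 6 h and 1, Herpud1, was higher, where 27.5% of all genes passed lower and 25% higher. The 7 were Creld2 (-1.26), Sdf2l1 (-0.80), Hspa5 (-0.59), Calr (-0.50), Hsp90b1 (-0.26), Pdia4 (-0.24) and Edem1 (-0.21), and Herpud1 was at 0.25 ± 0.09. Dnajb9, already low in AA at 6 h, did not pass (0.22 ± 0.17). Calls close to the threshold were lost on leaving out 1 array: Edem1 without AA 6 h replicate 1 or 2 or AA 24 h replicate 1 or 3, Pdia4 without AA 6 h replicate 3 or AA 24 h replicate 2 or 3, and Herpud1 without AA 6 h replicate 3 or AA 24 h replicate 1 or 3. The Pdia4 call was also lost with median centring, repeated quantile normalization, no intensity trend or no filter. That of Edem1 was also lost with median centring, and that of Herpud1 when only the arrays compared were fitted.

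From 24 h to 72 h the genes parted. In DMSO, Creld2 (0.54), Xbp1 (0.37) and Herpud1 (0.32) were higher at 72 h and Sdf2l1 (-0.74) and Edem1 (-0.59) lower, where 17.2% of all genes passed higher and 17.1% lower. In AA, Creld2 (0.80), Dnajb9 (0.56), Calr (0.55), Herpud1 (0.36) and Hspa5 (0.20) were higher at 72 h and Pdia4 (-0.53) and Edem1 (-0.45) lower, where 30% of all genes passed higher and 22.8% lower. The Xbp1 means at 24 h and 72 h in AA were 10.75 and 10.74. These comparisons share arrays with the treatment comparison at 72 h. The difference of Xbp1 between AA and DMSO at 72 h lay beside a rise in DMSO and a log2 difference of -0.01 ± 0.09 in AA. For Sdf2l1 it lay beside a fall in DMSO and a log2 difference of -0.15 ± 0.13 in AA that did not pass.

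**Figure D4:**
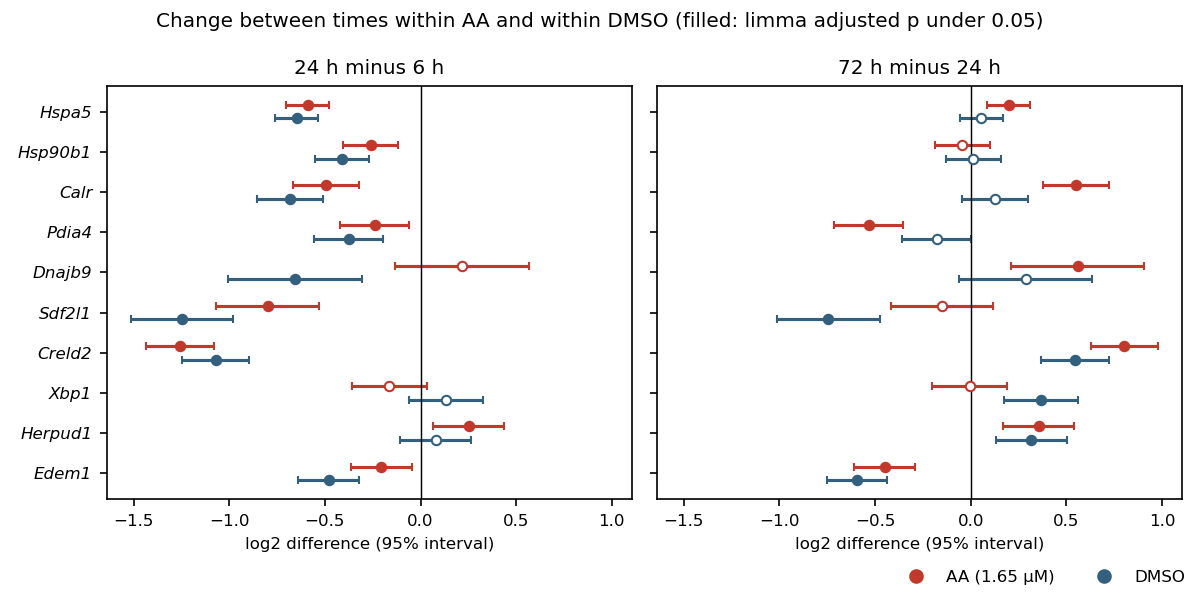
Log2 difference between times for the 10 genes, in AA (above) and in DMSO (below) for each gene, with 95% intervals; filled points passed the test. Between 24 h and 6 h the points lie mostly left of 0 in both treatments, with Sdf2l1 in DMSO at -1.25 and Creld2 in AA at -1.26; between 72 h and 24 h they lie on both sides.

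Other genes of the pathway were read from lists that name sensors and transducers, ER chaperones and folding enzymes, ERAD, translocation and early secretion, and the PERK and ATF4 arm, with the 10 genes left out. At 24 h 0 of the 106 tested genes of these 5 lists passed limma's test, and 10 had an unadjusted p under 0.05, where 2.09% of all genes passed and 1006 of 9015 had such a p. At 6 h 15 of the 106 passed, a smaller share than the 24.5% of all genes (12.1% higher and 12.4% lower). Of 30 chaperones and folding enzymes 1 rose, of 19 ERAD genes 2 fell, of 32 translocation and secretion genes 3 rose, of 14 ATF4 arm genes 3 rose, and of 11 sensors and transducers 2 rose and 4 fell. Among them Eif2ak3, the gene of PERK, fell by 0.47 on the log2 scale (adjusted p = 0.0135), Nfya and Nfyb, subunits of NF-Y, were at -0.46 and -0.45, and Creb3l1, an ER-anchored transcription factor, at 0.44. Dnajc3, a BiP co-chaperone that inhibits PERK, was at 0.24, the ERAD ligase gene Syvn1 at -0.30 and its partner enzyme gene Ube2g2 at -0.24. Kdelr3, a receptor that returns ER residents (0.55), the signal peptidase subunit gene Sec11c (0.51) and Srpra of the signal recognition particle receptor (0.30) rose, as did Psat1, an enzyme of serine synthesis (0.75), Nupr1 (0.52) and Ddit4, an inhibitor of mTORC1 (0.47). Of these 13 genes, all but Kdelr3 and Sec11c lost the call in at least 1 other setting, and Eif2ak3, Nfyb, Creb3l1, Dnajc3, Srpra, Nupr1, Ddit4 and Ube2g2 lost it without AA replicate 3. Without that array Psat1 stood at 0.36 and still passed.

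At 72 h genes of the wider pathway moved in both directions, those of the ATF4 arm mostly upward. Among 30 chaperones and folding enzymes, 10 rose and 8 fell, near the shares of all genes at 72 h (27.4% higher and 19.8% lower), and their median log2 fold change of 0.05 was that of all genes tested. Hyou1, the large ER chaperone that exchanges nucleotide on BiP, stood at 9.87, 10.04 and 9.47 on the AA arrays and at 8.73, 8.54 and 8.57 on the DMSO arrays, and rose by 1.18 ± 0.16 (adjusted p = 6.19e-06). Sil1, the other nucleotide exchange factor of BiP, stood at 7.11, 7.49 and 7.18 on the AA arrays and at 8.68, 8.70 and 8.58 on the DMSO arrays, and fell, at -1.39 ± 0.12 (adjusted p = 1.25e-08). For both genes the AA and DMSO arrays did not overlap. Dnajc3 rose (0.71) and the disulphide isomerase gene Pdia5 fell (-0.74).

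Among 19 ERAD genes, 8 rose and 1 fell at 72 h, where 27.4% of all genes passed higher and 19.8% lower, and the median log2 fold change was 0.19, beside 0.05 over all genes. Those with the largest changes were Os9, an ERAD lectin (0.87), Nploc4, a cofactor of the extraction ATPase VCP (0.74), Faf2, which recruits VCP to the ER (0.53), and the ubiquitin-conjugating enzyme gene Ube2j1 (0.50). Among 32 translocation and early secretion genes, 9 rose and 3 fell, the share that rose being near the 27.4% of all genes and the share that fell below their 19.8%, and the median was -0.04. Those that rose included Sec11c (0.71), the COPII coat gene Sec31a (0.53, lost without AA replicate 2), Srpra (0.40) and Kdelr3 (0.39).

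Among 11 sensors and transducers 5 rose and 3 fell at 72 h, against 27.4% of all genes higher and 19.8% lower, with a median of -0.14. Atf6 stood at 10.56, 9.99 and 10.23 on the AA arrays and at 10.93, 10.99 and 10.94 on the DMSO arrays. The groups did not overlap and Atf6 fell, at -0.69 ± 0.11 (adjusted p = 2.28e-05); it was at -0.24 at 6 h and -0.09 at 24 h, neither of which passed. Eif2ak3 did not pass at 24 h (0.10) or at 72 h (-0.14). Nfya (0.85), Nfyb (0.78) and Creb3l1 (0.82) rose at 72 h.

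The ATF4 arm had the highest median of the 5 lists at 72 h. Its 14 tested genes held 11 that rose and 1 that fell at 72 h, in a comparison where 47.2% of all genes passed (27.4% higher and 19.8% lower), and the median log2 fold change was 1.01. The transcription factor gene Atf3 rose by 5.27 ± 0.23, the pseudokinase gene Trib3 by 3.56 ± 0.29, the stress gene Sesn2 by 2.32 ± 0.13 and Ddit4 by 2.24 ± 0.14, while Nupr1 fell, at -1.25 ± 0.17. Atf3, Sesn2 and Ddit4 are known to answer other stresses as well, DNA damage among them. Cdkn1a, a p53 target read as a check of the exposure, was at 14.57, 14.63 and 14.48 in AA and at 10.88, 11.02 and 10.65 in DMSO at 72 h, with no overlap (log2 fold change 3.71 ± 0.09, adjusted p = 1.56e-16).

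**Figure D5:**
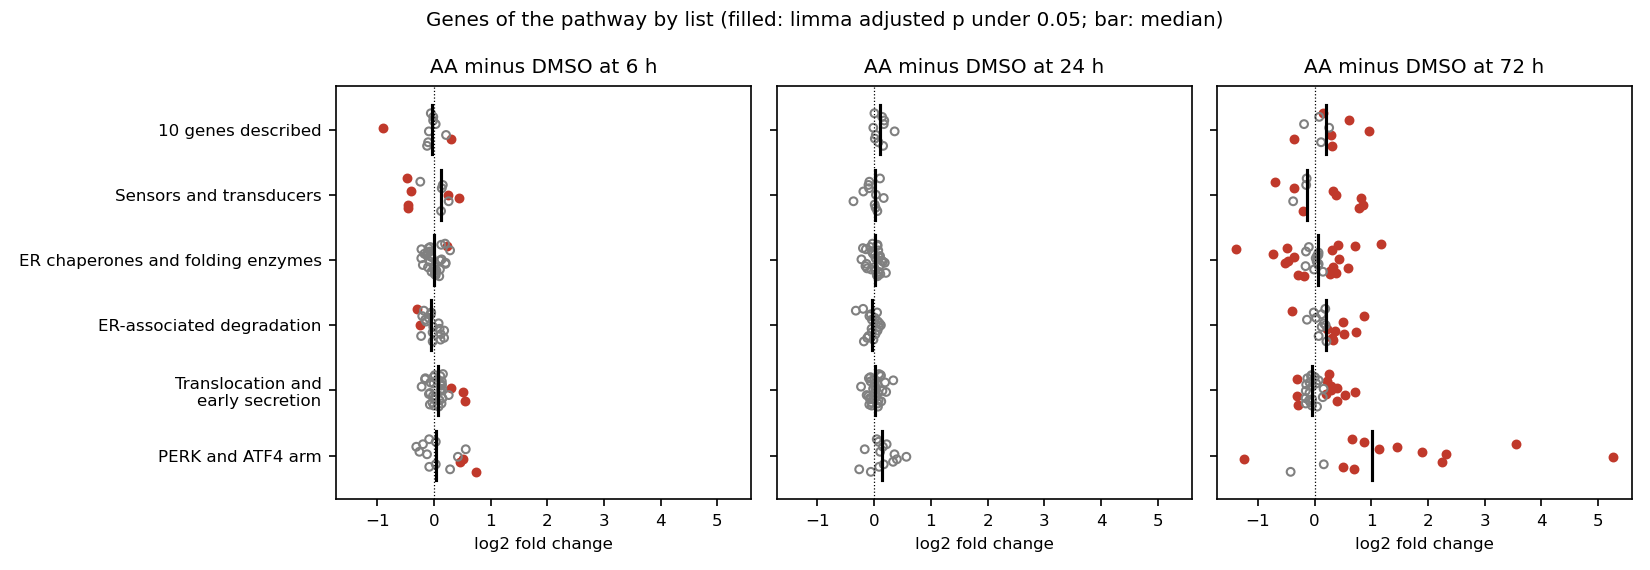
Log2 fold change of AA over DMSO at 6, 24 and 72 h for the 10 genes and for the other tested genes of 5 pathway lists; each point is a gene, filled points passed the test and the bar is the list's median. At 72 h the ATF4 arm has a median of 1.01, while the medians of the other lists lie between -0.14 and 0.20.

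Outside the 10 genes, exact ERSE letters were found in the promoters of Canx, Dnajc3, Ero1b and Derl3 of these lists, and ERSE-II in that of Hyou1. At 72 h the 5 genes with exact ERSE among the 10 held 3 that rose (Calr, Creld2 and Hspa5), 1 that fell (Xbp1) and 1 that did not pass (Hsp90b1), with the Hspa5 call lost in 8 of 15 other settings. The 5 members without exact ERSE held 2 that rose (Sdf2l1 and Edem1 on its brightest probe set) and 3 that did not pass, and over all genes 27.4% passed higher and 19.8% lower. Of the genes outside the 10, Dnajc3 and Hyou1 rose, Ero1b, an ER oxidase gene, fell (-0.46, adjusted p = 0.00614), the lectin chaperone gene Canx did not pass (-0.15, adjusted p = 0.0731) and Derl3 was not analysed here.

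Over the 18 arrays, the 45 pairs of the 10 genes had Pearson correlations between -0.795 and 0.900 with a median of 0.23, and 29 were above 0. The highest were Sdf2l1 with Edem1 (0.900) and Hspa5 with Hsp90b1 (0.880), and the lowest was Pdia4 with Herpud1 (-0.795). These arrays share their time and treatment groups. After the group means were removed the correlations lay between -0.575 and 0.817 with a median of 0.08. The genes outside the 10 whose values correlated most with Hspa5 over 18 arrays were Lyar (r = 0.980), Znhit6 (0.976), Kctd20 (0.975), Tubgcp6 (0.972) and Gltp (0.966), where the median over all genes was 0.03. With the mean of the 10 standardised genes they were Kctd20 (0.975), Rpa2 (0.965), Ddx59 (0.964), Pkmyt1 (0.960) and Gltp (0.957), where the median over all genes was 0.04.

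The number of arrays limits the precision of all these values. Replicates of a group correlated across tested genes with r between 0.989 and 0.998, and the median over genes of the SD between replicates was 0.14 on the log2 scale. The centre of the arrays differed little, with medians over all probe sets of 4.03 to 4.20.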

How the data were processed

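Total RNA of confluent NRK-52E cells was extracted, labelled with biotin and read on 18 rat arrays made by Affymetrix, per the labels' protocols. The deposited values are log2 expression values of 31099 probe sets, made by the authors with GCRMA (version not given in the sources used here), per the submitters' processing notes; scanner files were not used here. GCRMA corrects background by probe sequence and quantile-normalizes arrays together, so low values gather near a floor and a change shared by most genes is removed. Groups followed the labels' agent and time. Gene symbols came from the platform annotation: 20826 probe sets had 1 symbol, 436 several and 9837 none (57 controls included), and 20758 matched a gene of GRCr8. Of several probe sets of a gene, the one with the highest mean stood for it.

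limma 3.58.1 in R 4.3.3 fitted 6 group means to all 18 arrays (lmFit, contrasts, eBayes with an intensity trend, two-sided, Benjamini-Hochberg), after genes without a log2 level of at least 4 on 3 arrays were left out; 9015 remained. The fit was tested on simulated data. The alternatives were another scaling (median centring, repeated quantile normalization), no trend, a robust prior, no filter or a filter at 6, only the arrays compared, every probe set alone, the replicate block and leaving out each replicate. Same-numbered AA and DMSO arrays did not deviate together in every pair, so numbers were not treated as pairs. Further pathway genes were named by rule: up to 4 past the test with the largest change per list and treatment comparison, with Eif2ak3 and Atf6 always, and for likeness the 5 genes with the highest correlation. The 10 genes, the lists and the rules were chosen with earlier results of these data known. The comparison of 72 h with 6 h and a fit without the 3 AA arrays at 72 h were added after seeing the data. Ern1, the gene of IRE1, was not analysed here. Promoter sequences were read from RefSeq's GRCr8 table.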

Additional observations from a re-analysis of the deposited data

Results flagged for a closer look

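These results are listed because the effect of AA differed between times, as tested by limma on the difference itself over all genes (n = 3 arrays a group). Between 72 h and 24 h the effect was higher for Calr (0.42, adjusted p = 0.0095) and Sdf2l1 (0.59, adjusted p = 0.017). It was lower for Pdia4 (-0.35, adjusted p = 0.0316), Xbp1 (-0.37, adjusted p = 0.0364) and the Edem1 probe set 1384186 (-1.08, adjusted p = 0.00508).

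Between 72 h and 6 h it was higher for Hspa5 (0.20, adjusted p = 0.0424), Calr (0.61, adjusted p = 0.000414), Dnajb9 (1.15, adjusted p = 0.000806), Sdf2l1 (1.04, adjusted p = 0.000169) and Edem1 on its brightest probe set (0.42, adjusted p = 0.0044). It was lower for Xbp1 (-0.67, adjusted p = 0.000541) and for Edem1 on probe set 1384186 (-0.95, adjusted p = 0.00848), so the probe sets of Edem1 differed in direction. Among the wider pathway the NF-Y subunit genes Nfya (1.31, adjusted p = 3.94e-06) and Nfyb (1.23, adjusted p = 8.66e-05) were below DMSO at 6 h and above it at 72 h. Nupr1 was above DMSO at 6 h and below it at 72 h, a change of -1.77 (adjusted p = 1.12e-05).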

How the results depend on the processing

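Over the 10 comparisons, 100 values of the 10 genes were set against 1740 recomputed ones: 1635 kept direction and side of the threshold, 59 lost the call, 17 gained it and 29 changed sign. Of 46 calls 37 held under every alternative run and 0 changed sign; those that did not are named with their arrays in the text above. Of genes called at 6 h there were 2211, but 579 in a fit of the 6 h arrays alone, 900 with AA replicate 3 left out and 1414 with DMSO replicate 2 left out; the calls of sensors, chaperones, ERAD and ATF4 arm genes at 6 h were also lost in the fit of the 6 h arrays alone. At 24 h there were 188, but 112 with no filter and 100, 104, 106 and 102 without AA replicate 1, AA replicate 2, DMSO replicate 1 and DMSO replicate 3. With the replicate block, 2265, 188 and 4256 genes passed at 6, 24 and 72 h and 2, 0 and 6 of the 10 genes, as without it. No pairing of the numbers was found, and 0 calls of the 10 genes changed.

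The count of the 10 genes called was 1 at 6 h with only those arrays fitted alone, 1 for the change of effect between 24 h and 6 h under median centring, the robust prior or the stricter filter, and 2 for the change between 72 h and 24 h with no trend or no filter. Leaving out 1 array gave 1 to 2 called at 6 h, 0 to 1 at 24 h, 0 to 1 and 2 to 4 for the changes of effect from 6 h to 24 h and from 24 h to 72 h, and 5 to 8 between 24 h and 6 h in AA. No value that changed sign had been called. Repeated quantile normalization gave -0.0064 for Pdia4 at 6 h, -0.036 for Hspa5 at 24 h, -0.00087 for the change of Herpud1 between 72 h and 24 h, and, in DMSO between 72 h and 24 h, -0.049 for Hspa5 and -0.080 for Hsp90b1. Median centring gave 0.0021 for Dnajb9 at 24 h and -7.49e-05 for that change of Herpud1. On leaving out 1 array the log2 fold changes at 6 h ran from -0.045 to 0.061 for Hsp90b1, -0.077 to 0.057 for Calr, -0.018 to 0.12 for Pdia4, -0.20 to 0.0028 for Herpud1 and -0.22 to 0.078 for Edem1 probe set 1384186. At 24 h they ran from -0.027 to 0.033 for Hspa5, -0.10 to 0.073 for Dnajb9, -0.041 to 0.056 for Xbp1 and -0.023 to 0.18 for Edem1 probe set 1384186, and at 72 h from -0.21 to 0.0018 for Eif2ak3. Between times they ran from -0.032 to 0.079 for Hsp90b1 (DMSO, 72 h and 24 h), -0.075 to 0.38 for Dnajb9 (AA, 24 h and 6 h), -0.081 to 0.0034 for Hsp90b1 and -0.050 to 0.053 for Xbp1 (AA, 72 h and 24 h), and -0.015 to 0.18 for the change of the Creld2 effect between 72 h and 6 h. The cause was not tested.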
